A study of Mus musculus with 6 samples.

Results

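The genes of antigen presentation by the major histocompatibility complex (MHC, called H2 in the mouse) were read in whole mouse testes at postnatal day 1.5, with Arid4bSCKO compared against control. The set held every gene of the deposited table whose symbol begins with H2-, apart from H2-Ke6 and H2-Ke2, which encode no MHC chain, together with B2m, Tap1, Tap2, Tapbp, Tapbpl, Erap1, Nlrc5, Ciita and Cd74. It comprised 45 of 22320 genes: 26 class I heavy chain genes and pseudogenes, 7 genes of the class I machinery, 10 class II chain genes, and 2 genes of the class II machinery. Arid4bSCKO mice had the genotype Arid4b-/Flox with Amh-cre, and control mice had Arid4b+/Flox with Amh-cre, so both groups carried the floxed allele and a Cre under the promoter of Amh, a hormone gene of Sertoli cells. The null allele was present in every cell of the Arid4bSCKO mice. All mice were hybrids of the strains C57BL6/J and 129/SvEv. Poly(A) RNA of whole testes was sequenced from 3 pools of 4 testes per group, and a library held all cell types of the organ.

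MHC class I molecules are made by most nucleated cells. A heavy chain pairs with the light chain B2M, is filled with peptides that the proteasome has cut and the TAP transporter has moved into the endoplasmic reticulum, and is read at the cell surface by CD8 T cells and natural killer cells. MHC class II molecules are made mainly by macrophages, dendritic cells and B cells, are loaded in endosomes with the help of the invariant chain CD74 and the DM proteins, and are read by CD4 T cells. The testis is known for restraint of immune responses against its germ cells, and its interstitium houses resident macrophages.

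The classical class I heavy chains, the light chain B2m and the loading chaperone gene Tapbp rose in Arid4bSCKO testes, whereas no class II chain gene passed the test. Levels below are the authors' deposited means per group of log2(normalized count + 1), a difference is the mean of Arid4bSCKO minus that of control in log2 units, and its 95% interval was derived from the p-value the authors deposited. Values per pool were not analysed here, so how many pools showed a direction is not given. A gene is said to have risen or fallen where it passed a moderated limma test at an adjusted p below 0.05. This test shares the spread between genes of similar level and was run on the 19095 genes whose level, averaged over both groups, was 1 or more. It called 13.8% of them in either direction, 7.37% as higher and 6.46% as lower, and their median difference was -0.04. This was 1408 genes higher and 1233 lower. With differences centred on their trend with length the counts were 1464 and 760, over only the 16912 genes with a known length. By the FDR in the authors' deposited table, at 0.05, the share was 0.26% of all its genes. Every unadjusted p-value given below is the deposited one, and 24.1% of the genes tested had one below 0.05. Of the 45 MHC genes 39 reached the minimum level, and 5 of these (12.8%) were called, all higher. These calls include H2-M2, which reached the minimum level only through the group in which it was detected. The share called in either direction was close to that of all genes, and the calls lay in class I. Depth, estimated from genes read in a single library, averaged 17.5 M reads for the Arid4bSCKO libraries and 18.6 M for those of control. The targeted gene Arid4b was lower in the authors' deposited table, with a level of 8.68 against 10.19 in control.

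**Figure D1:**
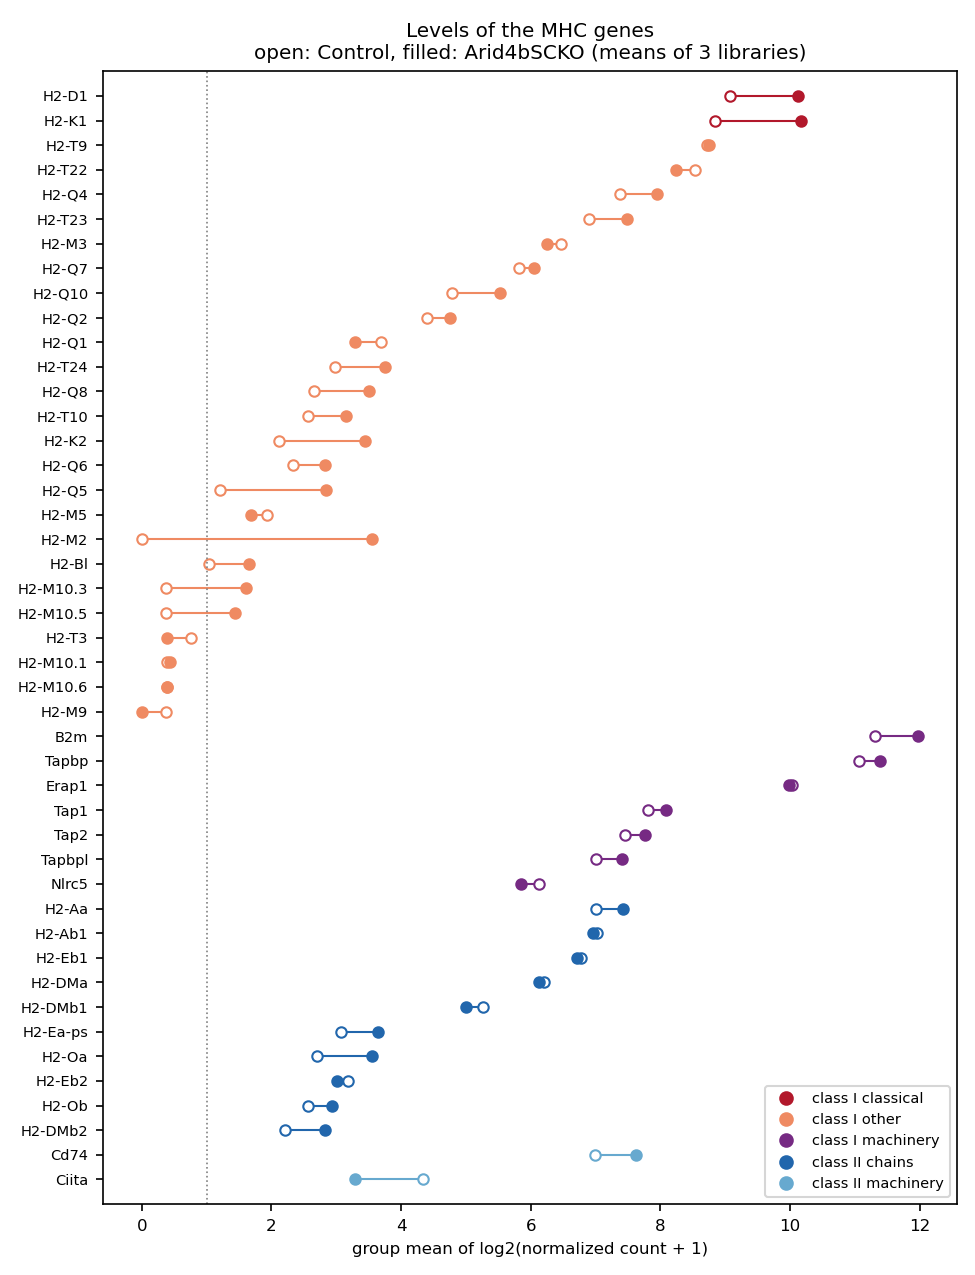
Group means of log2(normalized count + 1) for the 45 MHC genes, grouped by class and ordered by level, with open points for Control and filled points for Arid4bSCKO (each the mean of 3 libraries). The dotted line marks the minimum mean level of 1. H2-K1 and H2-D1 moved from about 9 to about 10, while H2-Ab1, H2-Eb1 and H2-DMa kept almost overlapping points.

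H2-K1 and H2-D1 encode the classical class I heavy chains that present peptides to CD8 T cells. H2-K1 (chromosome 17, 33996017 to 34000347, minus strand, mm10) had a deposited mean level of 10.17 in Arid4bSCKO and 8.84 in control. It thus rose by 1.33 (95% interval 0.77 to 1.88), which on the scale with 1 added to each normalized count is 2.51-fold. H2-D1 (chromosome 17, 35262730 to 35267499, plus strand) had a mean level of 10.12 in Arid4bSCKO and 9.07 in control, and rose by 1.05 (0.65 to 1.44), or 2.06-fold. Both genes exceeded the spread between pools, which the deposited p-value places at an SD of 0.24 for H2-K1 and 0.17 for H2-D1. The moderated limma test gave adjusted p-values of 3.81e-04 and 4.36e-04. Neither passed the authors' FDR, at 0.0992 and 0.0911 in their deposited table.

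B2m (chromosome 2, 122147686 to 122153083, plus strand) encodes the light chain without which class I molecules do not reach the cell surface, and it lies outside the H2 region. Its deposited mean level was 11.97 in Arid4bSCKO and 11.31 in control, a rise of 0.67 (95% interval 0.55 to 0.79), or 1.59-fold. With an SD of 0.05 it had the narrowest spread of the MHC genes tested. Centred on the trend with transcript length, its difference was 0.53, below the lower end of that interval, so the size depends on the processing. The limma adjusted p was then 0.00142. B2m passed the authors' FDR (0.0437 in the authors' deposited table) as well as the moderated limma test (adjusted p = 4.36e-04). Across the 45 genes 2 passed the authors' FDR, against 0.26% of the whole table, namely B2m and H2-M2, described below.

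The promoters of these genes hold a shared block of elements, and they are shown here because the 3 genes that encode the classical class I molecule rose together. Class I and class II promoters are known for an SXY module, in which the RFX complex, CREB or ATF factors on the X2 box and NF-Y on the Y box form the landing site for the transactivators NLRC5 (class I) and CIITA (class II). The windows run from 250 bases before to 50 bases after the RefSeq start of each gene (GRCm38.p6), read 5′ to 3′ on the gene's strand. Capitals mark matches, on either strand, to the Y box core CCAAT, the core TGACG of the cyclic AMP response element found in X2 boxes, an NF-kappaB core (GGGA, any 4 bases, CC) and an interferon-stimulated response element core (GAAA, any 2 bases, GAAA). Matches on both strands can overlap.
B2m, chr2:122147437-122147736, plus strand: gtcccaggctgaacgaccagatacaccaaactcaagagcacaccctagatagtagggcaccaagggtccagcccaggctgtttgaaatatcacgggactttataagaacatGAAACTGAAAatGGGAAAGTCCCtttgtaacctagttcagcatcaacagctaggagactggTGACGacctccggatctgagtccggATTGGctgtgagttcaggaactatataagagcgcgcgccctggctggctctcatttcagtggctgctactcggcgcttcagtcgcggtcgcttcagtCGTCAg
H2-K1, chr17:34000284-34000583, minus strand: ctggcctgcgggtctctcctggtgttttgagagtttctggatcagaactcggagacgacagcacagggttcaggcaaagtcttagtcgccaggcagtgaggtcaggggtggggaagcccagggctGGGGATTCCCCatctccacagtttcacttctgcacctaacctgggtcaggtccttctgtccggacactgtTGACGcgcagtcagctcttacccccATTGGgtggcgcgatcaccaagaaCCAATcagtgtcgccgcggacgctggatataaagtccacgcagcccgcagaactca
H2-D1, chr17:35262844-35263143, plus strand: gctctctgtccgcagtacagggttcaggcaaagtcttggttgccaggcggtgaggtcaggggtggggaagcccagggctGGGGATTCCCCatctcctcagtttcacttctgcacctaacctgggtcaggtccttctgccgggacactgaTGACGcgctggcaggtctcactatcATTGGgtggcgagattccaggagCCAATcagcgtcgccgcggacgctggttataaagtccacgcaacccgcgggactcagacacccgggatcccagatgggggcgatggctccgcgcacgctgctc
H2-Aa, chr17:34287774-34288073, minus strand: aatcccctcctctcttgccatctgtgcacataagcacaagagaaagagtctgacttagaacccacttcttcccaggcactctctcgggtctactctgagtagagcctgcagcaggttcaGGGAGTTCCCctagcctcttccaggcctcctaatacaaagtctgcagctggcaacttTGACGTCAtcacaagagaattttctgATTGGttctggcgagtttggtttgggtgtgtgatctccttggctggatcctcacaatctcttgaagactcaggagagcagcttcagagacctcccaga

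In B2m, H2-K1 and H2-D1 a TGACG was followed by the reverse complement of CCAAT on the same strand, with 25 bases from the first base of one to the first base of the other. The class II gene H2-Aa, which did not pass the test, held the same order with a spacing of 26 bases. The 4 windows also held an NF-kappaB core further upstream, and B2m alone among these 4 held an exact match to the interferon element core. That core was searched as a fixed string, so a window without a match can still hold a variant of the element. The table of RefSeq windows had an entry for 30 of the 45 genes, with 33 windows in all. The Y box core was found in 28 of these 33 windows and in 37.4% of 32851 windows of all genes. For the TGACG core the counts were 14 of 33 and 20.8%, for the NF-kappaB core 13 of 33 and 20.7%, for the interferon element core 4 of 33 and 3.44%, and for a gamma-activated site (TTCNNNGAA) 2 of 33 and 8.3%. A TGACG placed 24 to 26 bases from a Y box core, a spacing looked for after the windows had been read, was found in 7 of 33 windows and in 0.201% of all windows. Beside the 4 genes shown, with 2 start sites for H2-K1, these belonged to H2-Q7 and H2-M3. Neither H2-Q7 nor H2-M3 passed the test, so the spacing was found in genes that rose and in genes that were not called. A match is a run of letters and was not tested as a binding site.

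**Figure D2:**
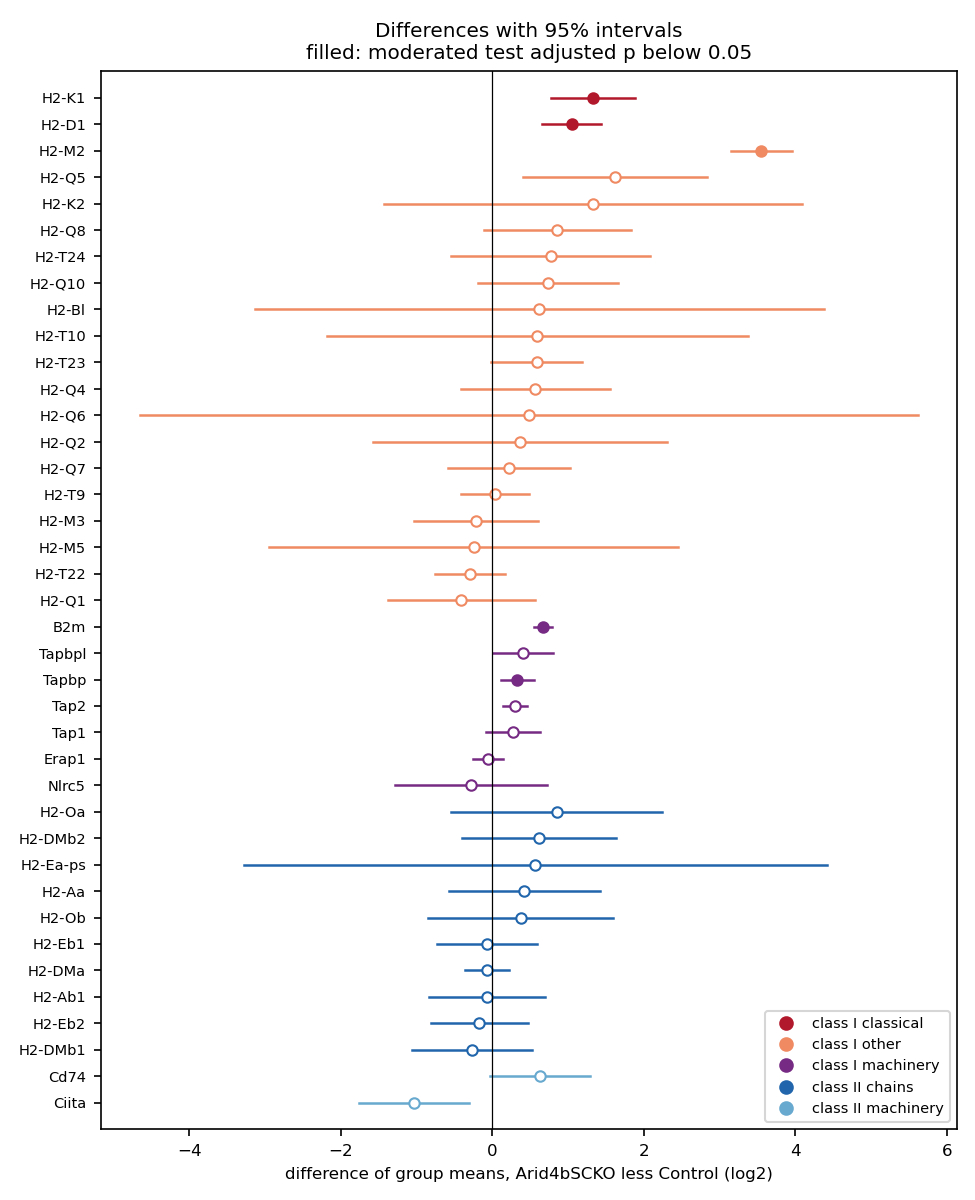
Differences of the group means (Arid4bSCKO less Control, log2) with 95% intervals for the 39 MHC genes at a mean level of at least 1. Filled points are the 5 genes called by the moderated test, H2-K1, H2-D1, H2-M2, B2m and Tapbp, which all lie to the right of 0, and the 10 class II chain genes have intervals that include 0.

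The rest of the class I machinery gave smaller differences. Tapbp encodes tapasin, which bridges class I molecules to the TAP transporter and edits their peptides. It rose by 0.33 (95% interval 0.12 to 0.54), from a level of 11.06 to 11.39, with an adjusted p of 0.0272 in the moderated limma test, while the authors' deposited table gives its FDR as 0.144. When limma shared 1 spread over all levels, without robust fitting, the adjusted p of Tapbp was 0.118. The transporter subunit genes were at 8.09 against 7.81 (Tap1) and 7.76 against 7.45 (Tap2). Their differences of 0.28 (-0.08 to 0.63) and 0.30 (0.15 to 0.46) did not pass the limma test, with adjusted p-values of 0.233 and 0.169. The interval of Tap2 lies above 0, and its unadjusted p in the authors' deposited table was 0.00588. Tapbpl, which encodes the tapasin-like editor TAPBPR, was at 0.41 (0.01 to 0.80) and was not called. Erap1, the aminopeptidase that trims peptides in the endoplasmic reticulum, was at -0.06 (-0.26 to 0.14). Nlrc5, the class I transactivator, was at 5.85 in Arid4bSCKO and 6.13 in control, a difference of -0.28 (-1.29 to 0.73). Of the 7 machinery genes 2 were thus called higher (28.6%, against 7.37% of all genes), 5 had positive differences, and the median was 0.30. The direction of Nlrc5 was opposite to that of H2-K1, H2-D1 and B2m, within a wide interval.

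The other class I genes are mostly nonclassical heavy chains encoded in the Q, T and M regions of chromosome 17, with more restricted tissue patterns than H2-K1 and H2-D1. Of these 24 genes 18 reached the minimum level, 1 of the 18 was called (5.56%, against 7.37% of all genes for calls as higher), and 14 had positive differences. A positive difference was found in 45.8% of all genes tested. H2-M2 was the called gene. It was listed at 0 in control and at a mean level of 3.55 in Arid4bSCKO in the authors' deposited table, where its FDR was 0.0154, and the moderated limma test gave an adjusted p of 0.00308. The mean level corresponds to between 7.37 and 8.36 reads, and no fold is given against a group at 0. That range reflects the estimated worth of 1 read and not the spread between the Arid4bSCKO libraries. H2-M2 reached the minimum level only through the group in which it was detected, and a group without reads adds no spread. The deposited p-value therefore rests on the spread of 3 libraries, and the limma test adds to it the spread of other genes of similar level.

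Among the nonclassical genes with more reads, H2-Q4 (the Qb-1 antigen) was at 7.94 against 7.37, a difference of 0.57 (95% interval -0.42 to 1.55). H2-T23 encodes Qa-1, the ligand of the NKG2A receptor of natural killer cells. It was at 7.48 against 6.90, a difference of 0.59 (-0.01 to 1.19) that was not called (limma adjusted p = 0.0695). H2-T22 and H2-T9 were at -0.29 (-0.75 to 0.17) and 0.03 (-0.42 to 0.48). H2-M3, which presents peptides with a formylated start, was at -0.21 (-1.03 to 0.60), and H2-Q7, the source of the Qa-2 antigen, at 0.22 (-0.58 to 1.03). H2-Q10, a secreted heavy chain, was at 0.73 (-0.19 to 1.66). None of these 7 genes passed the test, and 5 of them had positive differences.

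Genes with few reads had intervals too wide to place. H2-Q5 was at 2.84 against 1.21, a difference of 1.62 (95% interval 0.41 to 2.84) with an adjusted p of 0.0957 in the moderated limma test. H2-K2, a pseudogene near H2-K1, was at 1.33 (-1.43 to 4.09), H2-Q8 at 0.86 (-0.11 to 1.83), and H2-T24 at 0.77 (-0.54 to 2.08). H2-Bl, H2-T10, H2-Q6 and H2-Q2 lay between 0.36 and 0.62, and H2-M5 and H2-Q1 at -0.25 and -0.41. For 16 of the 17 uncalled nonclassical genes the interval included 0, H2-Q5 being the exception. Below the minimum level were 6 genes: H2-T3, H2-M9, H2-M10.1, H2-M10.3, H2-M10.5 and H2-M10.6. Their mean levels ran from 0 to 1.61 in Arid4bSCKO and from 0.38 to 0.77 in control. As group means these are at most about 1.60 reads, and a single library can hold more. The mean over both groups of the gene nearest below the limit was 0.99, and that of H2-Bl, nearest above it, was 1.34.

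**Figure D3:**
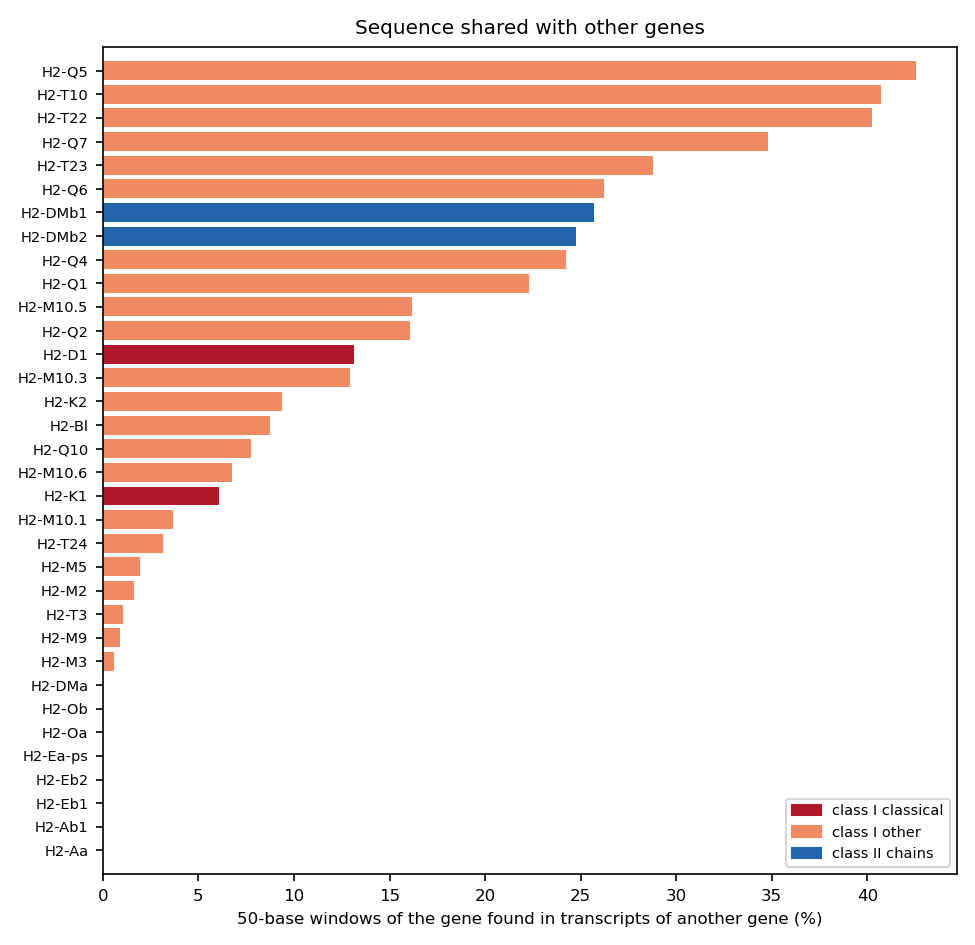
Share of the distinct 50-base windows of each H2 gene's transcripts (GENCODE vM21) that also occur in transcripts of another gene. H2-K1 and H2-D1 share 6.06% and 13.1% of their windows, while H2-Q5, H2-T10 and H2-T22 share more than 40%, and 8 of the 10 class II chain genes share none.

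Class I genes are close copies of each other, which bears on how reads can be assigned to them. Reads were 50 bases long from each end, so the share of 50-base windows that a gene has in common with another gene was counted in the GENCODE vM21 transcripts. For B2m no window was shared (0 of 811). The share was 6.06% for H2-K1, with H2-D1 as the closest partner, and 13.1% for H2-D1. In the Q and T regions it was higher, at 24.3% for H2-Q4, 28.8% for H2-T23, 34.8% for H2-Q7, 40.3% for H2-T22, 40.7% for H2-T10 and 42.6% for H2-Q5. Values of these genes are therefore uncertain, since the sources used here do not say how shared reads were counted. The deposited table ties H2-Q6 and H2-Q8 to the same RefSeq transcript, and it ties H2-T9 to that of H2-T22 as well as to its own, so how reads were divided within these pairs is uncertain, although each gene has values of its own. Most windows of H2-K1 and H2-D1 were their own, whereas part of a level of H2-Q5 or H2-T10 can stem from a neighbour.

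Class II chain genes were read at lower levels and showed no called difference. The moderated limma test called 0 of 10, the authors' FDR 0 of 10, and an unadjusted p below 0.05 was reached by 0 of 10. Over all genes these shares were 13.8%, 0.26% and 24.1%, so with 10 genes a count of 0 is near the background. Their median difference was 0.15, with 5 positive and 5 negative differences, and it was -0.07 when only genes at a level of 3 or more were kept. H2-Aa and H2-Ab1 encode the chains of the I-A molecule. H2-Aa was at 7.42 in Arid4bSCKO and 6.998 in control, a difference of 0.42 (95% interval -0.57 to 1.42), and H2-Ab1 at 6.95 and 7.03, a difference of -0.07 (-0.84 to 0.69). H2-Eb1, the beta chain gene of the I-E molecule, was at 6.71 and 6.78 (-0.07, -0.73 to 0.59). These 3 genes had the highest class II levels, and all were within the spread between pools.

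Peptide exchange on class II molecules depends on the DM proteins, which the DO proteins hold back. H2-DMa was at 6.13 in Arid4bSCKO and 6.20 in control, a difference of -0.07 with a narrow interval of -0.36 to 0.22. H2-DMb1 was at -0.27 (95% interval -1.06 to 0.53) and H2-DMb2 at 0.62 (-0.40 to 1.63), and these adjacent copies share 25.7% and 24.8% of their 50-base windows. The DO genes H2-Oa and H2-Ob were at 0.85 (-0.55 to 2.24) and 0.37 (-0.85 to 1.59), with control levels of 2.71 and 2.56. H2-Eb2 was at -0.18 (-0.82 to 0.46) and H2-Ea-ps at 0.57 (-3.28 to 4.41). None of them passed the test.

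The class II machinery genes pointed in opposite directions. Cd74, the invariant chain that blocks the peptide groove and guides class II molecules to endosomes, was at 7.62 in Arid4bSCKO and 6.98 in control. Its difference of 0.63 (95% interval -0.03 to 1.29) had an adjusted p of 0.0585 in the moderated limma test. With the differences centred on the median of all genes the value was 0.67, and limma called it at an adjusted p of 0.0479. Ciita, the class II transactivator, was at 3.29 against 4.33, a difference of -1.04 (-1.76 to -0.31). It was not called (limma adjusted p = 0.0941, FDR 0.152 in the authors' deposited table), although its interval lies below 0. Ciita was the only member with an unadjusted p below 0.05 and a negative difference. Of the 39 members tested, 8 had such a p and a positive difference. Over all genes tested 24.1% had such a p in either direction, so the members' total is near the background. Among all genes with such a p, negative differences somewhat outnumbered positive ones. The 8 include H2-M2, which reached the minimum level only through the group in which it was detected.

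**Figure D4:**
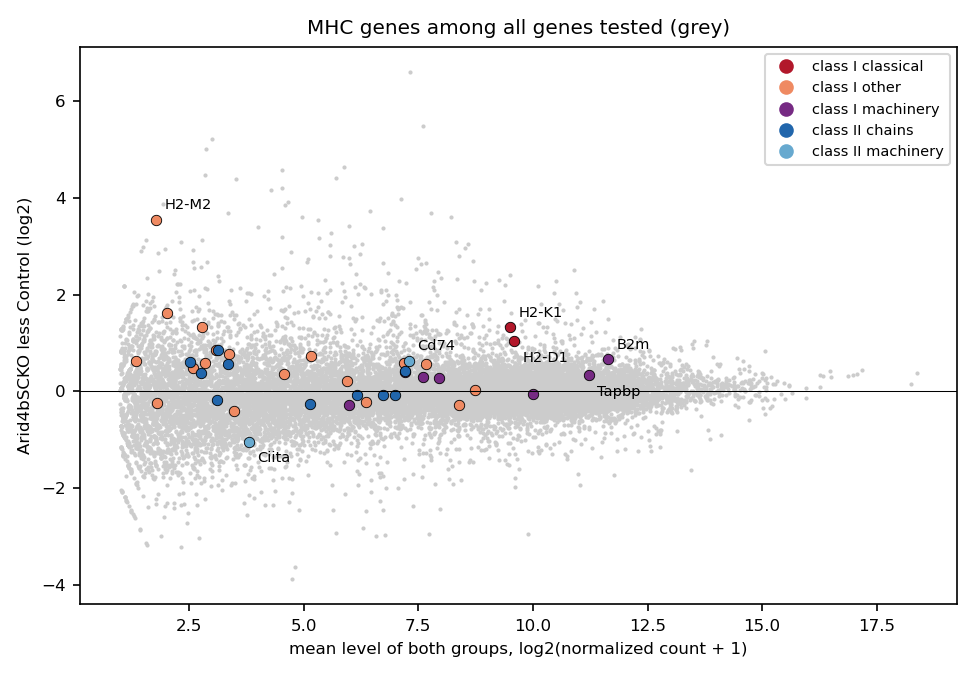
Difference of the group means (Arid4bSCKO less Control, log2) against the mean level of both groups for the 19095 genes tested, in grey, with the 39 MHC genes coloured by class. H2-K1, H2-D1 and B2m lie at levels of about 9 to 12 on the upper side of the grey cloud, while genes at low levels, of MHC or not, scatter widely.

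Set side by side, class I heavy chain genes had a median difference of 0.59 over the 20 at the minimum level (16 positive, 3 called), and class II chain genes had 0.15 over 10 (5 positive, 0 called). Of the class I genes 15.0% were called higher, against 7.37% of all genes. That share counts H2-M2, which reached the minimum level only through the group in which it was detected. With a minimum level of 3, which removes H2-M2, 2 class I genes were called higher. The median of class I included H2-M2 and other genes that can pass the minimum through 1 group, and many of the genes share reads, so it describes the list. For 5 class II genes (H2-Ab1, H2-Eb1, H2-Eb2, H2-DMa and H2-DMb1) the upper end of the interval, from 0.22 to 0.69, lay below the lower end for H2-K1, which was 0.77. Against the lower end for H2-D1, 0.65, H2-Ab1 overlapped, and against that for B2m, 0.55, H2-Ab1 and H2-Eb1 did. For the other 5 class II genes the upper end was 1.42 (H2-Aa), 1.59 (H2-Ob), 1.63 (H2-DMb2), 2.24 (H2-Oa) and 4.41 (H2-Ea-ps), so a rise of the size seen in H2-K1 was within their intervals. How many of all genes tested have an upper end this low was not counted, so these counts of intervals have no background share beside them. Upper ends below 0.77 were also found among class I genes, such as H2-T22 (0.17), H2-T9 (0.48) and H2-M3 (0.60). They are therefore not particular to class II. A test of class I against class II needs a value per pool and was not made.

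Levels per kilobase of transcript, from the group means taken back to normalized counts, showed the make-up of each class. B2m was the most abundant at 4676 in Arid4bSCKO and 2941 in control, followed by Tapbp at 926 and 737. H2-K1 stood at 709 and 282 and H2-D1 at 528 and 255. Summed over 24 class I heavy chain genes with a known length, the level was 1847 per kilobase in Arid4bSCKO and 1069 in control. The classical pair made up 66.9% of this sum in Arid4bSCKO and 50.3% in control. H2-T9 and H2-Q8 had no known length and are missing from the sum. H2-T9 was abundant and nearly equal in the groups, at 429.8 normalized counts in Arid4bSCKO and 420.5 in control. With it, both shares of the classical pair would be lower. The other 22 genes together were at 611 and 531, a ratio of 1.15. Over the 10 class II chain genes the sum was 400.5 and 366, a ratio of 1.09. The summed class I level was 4.61 times the class II level in Arid4bSCKO and 2.92 times in control. These sums carry no error, since values per pool were not analysed here, and they follow H2-K1 and H2-D1.

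Other genes of the pathway were taken from 4 lists of antigen presentation genes. Of 19 genes that supply or accompany class I molecules, 4 rose and 1 fell (26.3%, against 13.8% of all genes), and the median was 0.14. Irf1, an interferon-induced factor that drives class I genes, rose by 0.50 (95% interval 0.19 to 0.81), and Psmb10, an immunoproteasome subunit, by 0.44 (0.16 to 0.73). Sec61a1, of the protein-conducting channel, and Fcgrt, a class I-like receptor for IgG that also pairs with B2M, rose by 0.36 (0.18 to 0.54) and 0.35 (0.17 to 0.53). Mr1, which presents microbial metabolites, fell by 0.30 (-0.45 to -0.14). The other immunoproteasome subunit genes Psmb8 and Psmb9 were at 0.69 (-0.13 to 1.51) and 0.25 (-0.81 to 1.31), neither called.

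Of 14 genes of class II loading and its partners, 4 rose and 0 fell (28.6%, against 13.8% of all genes), and the median was 0.41. They were 3 endosomal proteases, Ctsh (1.80, 95% interval 1.23 to 2.37), Lgmn (0.89, 0.62 to 1.15) and Ctss (0.83, 0.39 to 1.27), and the costimulatory receptor gene Cd40 (0.88, 0.03 to 1.72). Cathepsin S cuts the invariant chain, and the other proteases also act outside antigen presentation. Ifi30, the endosomal thiol reductase GILT, was at 0.33 (-0.07 to 0.73) and was not called.

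The 8 factors of the shared promoter module all had negative differences, from -0.23 to -0.06, and none was called by the moderated limma test (0 of 8), whereas 1, Nfya, had an unadjusted p below 0.05. Over all genes tested, 10346 of 19095 had a negative difference, with a median of -0.04. Rfx5, Rfxap and Rfxank, the subunits of the RFX complex, were at -0.15 (95% interval -0.38 to 0.08), -0.08 (-0.35 to 0.19) and -0.06 (-0.19 to 0.07). Of 9 tested genes of interferon and NF-kappaB input none was called by limma (0 of 9), with 1 at an unadjusted p below 0.05. Against 13.8% of all genes called in either direction, a count of 0 in 8 or 9 genes is near the background. The interferon gamma gene Ifng was below the minimum level in both groups, at 0.40 and 0.39. In all 4 lists 8 of 50 genes were called higher (16.0%, against 7.37% of all genes) and 1 lower, and none passed the authors' FDR (0 of 50).

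**Figure D5:**
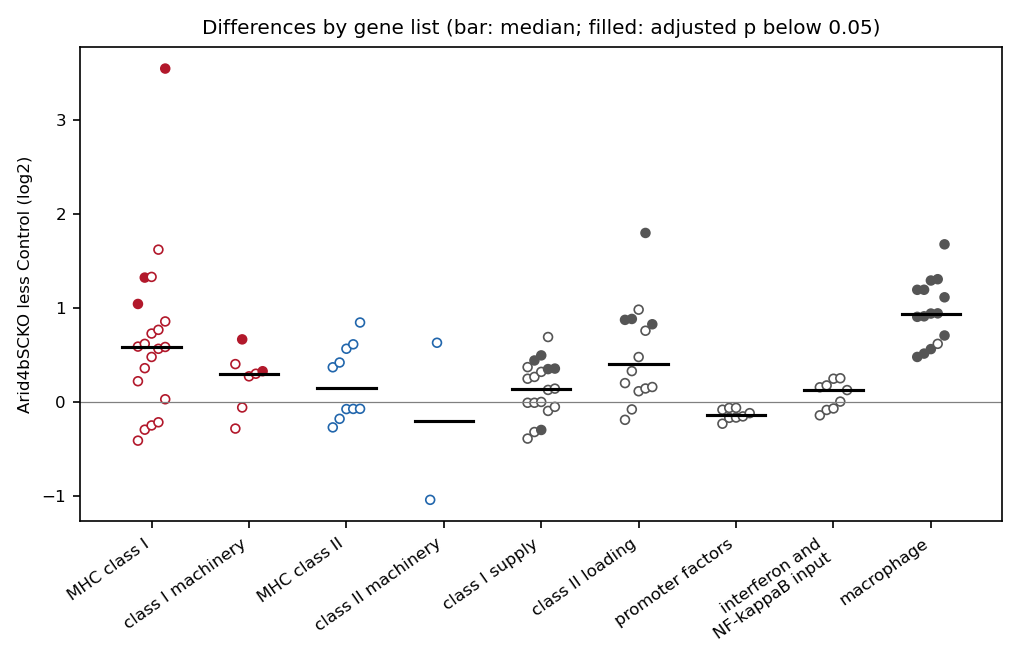
Differences of single genes (Arid4bSCKO less Control, log2) for the MHC classes, the 4 lists of other antigen presentation genes and the macrophage markers, with filled points for genes called by the moderated test and a bar at each median. Macrophage markers have a median of 0.94, class I heavy chains 0.59 and class II chains 0.15.

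Markers of cells that carry MHC molecules were read in the same comparison. Of 15 macrophage markers 14 were called higher (93.3%, against 7.37% of all genes), with differences from 0.48 to 1.68 and a median of 0.94. Their summed level was 8004 normalized counts in Arid4bSCKO and 3689 in control, a ratio of 2.17. Csf1r and Cd68, which define macrophages, were at 0.71 (95% interval 0.14 to 1.28) and 0.91 (0.24 to 1.58), both called. Summed in the same way, H2-K1 and H2-D1 had a ratio of 2.27 and the class II chain genes one of 1.07. The macrophage sum leans on Lyz2, at 2875 normalized counts in Arid4bSCKO and 897 in control. As single genes the macrophage markers ran from 1.40-fold (Cx3cr1) to 3.20-fold (Lyz2). None of the macrophage markers was at 0 in either group (0 of 15). The part of macrophages in the rise of class I genes was not tested. In whole testes, more cells of a type and more RNA per cell cannot be told apart.

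Of 7 dendritic cell markers tested, Itgax rose by 1.66 (95% interval 0.50 to 2.83) and Flt3 fell by 1.93 (-3.01 to -0.85), and the median was -0.02. B cell markers were present at low levels, and none of 5 was called by limma (0, and 0 at an unadjusted p below 0.05). The T cell marker Cd3e was at 2.44 and 3.09, and none of 7 T and natural killer cell markers was called (0, and 0 at an unadjusted p below 0.05). Of 6 granulocyte and mast cell markers 1 was called higher, and of 8 endothelial markers, whose cells carry class I molecules, 1 was called higher, with a median of -0.20. Sertoli cell markers fell in 6 of 10 cases (60.0%, against 6.46% of all genes) with a median of -0.62, and 2 of 8 germ cell markers fell (25.0%). Their defining genes were present, with Sox9 at 10.81 and 10.67 and Ddx4 at 10.62 and 10.91. No marker was called among 6 Leydig cell and 5 erythroid genes (0 and 0, and 0 and 0 at an unadjusted p below 0.05), and 1 of 6 myoid and stromal genes was called in each direction. Over all genes tested 7.37% were called higher and 6.46% lower. In lists of 5 to 8 genes, a count of 0 or 1 in a direction is near these shares.

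The position of the genes was read last, since 35 of the 45 lie on chromosome 17 between the start of H2-K1 at 33996017 and the end of H2-M2 at 37483552. Over the other 102 genes tested in this stretch, 12 were called higher and 8 lower, 19.6% against 13.8% of all genes. The median difference of these neighbours was -0.0032, and 51 of 102 were positive. H2-Ke6 and H2-Ke2, which share the H2 prefix without encoding an MHC chain, were at -0.06 (95% interval -0.28 to 0.16) and 0.09 (-0.23 to 0.42). The part of position in the differences of the H2 genes was not tested.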

How the data were processed

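Messenger RNA of 6 libraries, 3 per group, was read from both ends for 50 bases, per the labels' protocols. The submitters' processing notes list STAR 2.4 and mm10. How reads were counted and normalized, with which annotation and strand setting, is not given in the sources used here. Per the file headers, the authors deposited for each of 22320 genes the group means of log2 normalized counts, a log2 fold change of medians, a p-value that assumes equal variances and an FDR (also a p-value scale, adjusted by Benjamini-Hochberg). The offset of 1 was read from the values. No column holds single libraries.

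The pooled variance of each gene was derived from its deposited p-value with 4 residual degrees of freedom. It was shrunk with limma 3.58.1 in R 4.3.3 (squeezeVar, robust, with a trend on level; the prior had a median of 7.46 degrees of freedom) over the 19095 genes at a level of 1 or more, and p-values were adjusted by Benjamini-Hochberg. Rows with a filled-in value in place of reads (529) were left out. The method was tested on simulated data. Nothing in the labels ties pools to separate litters, so every p-value reflects no more than the differences among these pools. Depth was estimated from the worth of 1 read (1.201 to 1.453 normalized counts) in genes read in a single library. The depth limits genes with few reads: the median SD was 0.81 log2 at levels from 1 to 3 and 0.13 at levels of 7 or more.

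Transcript lengths, coordinates and shared 50-base windows came from GENCODE vM21 (GRCm38, the assembly of mm10), with a length for 43 of the 45 genes, and promoters from RefSeq (GRCm38.p6). All MHC genes at the minimum level were named, as were called genes of the companion lists and preset members of the companion and marker lists. Nfya was named after its value was seen. The members, lists and tests were chosen with earlier results of these data known. Alternatives covered the minimum level, the variance model, the authors' own FDR and p-values, 3 ways of centring and the fold change of medians.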

Additional observations from a re-analysis of the deposited data

How the results depend on the processing

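Over 10 alternatives (9 for H2-M2, which a minimum level of 3 removes) B2m stayed called in 9, H2-K1 and H2-D1 in 8 each, H2-M2 in 8 and Tapbp in 7, all with positive differences. Of these alternatives the fold change of medians keeps the adjusted p of the reported test, so it could change a value and not a call. Their limma or deposited adjusted p-values reached at most 0.0593 for B2m, 0.0992 for H2-K1, 0.0911 for H2-D1, 0.0584 for H2-M2 and 0.144 for Tapbp. Without trend and robust fitting 164 genes were called higher and 73 lower among all genes, 3 class I genes were called, 1 machinery gene, and 2 companion genes higher and 0 lower. By the authors' FDR the counts were 31 higher and 27 lower among all genes, 1 class I gene, 1 machinery gene, and 0 companion genes higher and 0 lower. Readjusting the deposited p-values over genes at level 1 or more left 2 genes higher and 0 lower among all genes, and 0 class I, 0 machinery and 0 companion genes. Removing a trend over transcript length, over only the 16912 genes with a known length, left 760 genes called lower and 0 companion genes lower. With no minimum level, and with centring on the median, 0 companion genes were called lower, and with centring on a trend over level 2 were. With either of these centrings 1 class II machinery gene, Cd74, was called. Directions turned for uncalled genes only: with the fold change of medians H2-Q2 was at -0.20, H2-T10 at -0.23, H2-M5 at 0.66, H2-Eb2 at 0.0506, H2-Ea-ps at -0.0469 and H2-DMb1 at 0.0672. Erap1 was at 0.0659 without the length trend and H2-DMa at 0.0035 without the level trend. The full cyclic AMP response element was found in 1 member window, against 14 for its core. Where a value changed, the cause was not tested. No paired analysis was possible because the table holds group means, and leaving out a replicate was not run for the same reason.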
